A study of Rattus norvegicus with 8 samples.

Results

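Retinoic acid is made inside cells from vitamin A, and the 9 genes described here, Aldh1a2, Aldh1a1, Crabp1, Crabp2, Rara, Rarb, Rxra, Rxrb and Rxrg, encode enzymes that make it, proteins that bind it in the cytoplasm and nuclear receptors that carry its signal to genes. They were chosen by gene symbol, and each probe set whose single annotated symbol was one of the 9 was taken, which gave 10 probe sets of 31042 on the array and 9 of 14217 named genes. The samples were lumbar motoneurons taken from the spinal cords of Wistar albino rats, at postnatal day 21 (P21), when myelination is complete, and at postnatal day 1 (P1), during myelination. Each age had 4 biological replicates with 1 Affymetrix array each, and rats of 4 litters were divided between the ages. Per the labels' protocols, 1500 to 2000 cells recognised by cresyl violet staining were laser-captured per array, RNA was pooled from 4 rats, and it was amplified in 2 rounds primed at the poly(A) tail. No genotype or treatment distinguished the groups, so age was their only labelled difference.

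Retinaldehyde dehydrogenases carry out the last, irreversible step of retinoic acid synthesis, and CYP26 enzymes break the product down. Retinoic acid binds RAR receptors, which sit on DNA as dimers with RXR receptors, recruit corepressors without ligand and coactivators with it, and often act at direct repeats of a short hexamer. In chick and mouse embryos, motoneurons of the limb-innervating lateral motor columns make retinoic acid with Aldh1a2, and the signal helps to set the number and subtype of the neurons there.

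The markers of the labelled cell type were measured first. Of 5 motoneuron markers tested, the cholinergic and peripherin genes were bright at both ages. Chat was higher at P21, Isl1, a transcription factor of motoneurons, was lower, and Slc18a3, Slc5a7 and Prph did not pass the test. Chat averaged 3451 ± 450 at P21 and 1377 ± 244 at P1 (linear intensity, SD, n = 4 arrays per age, as throughout), and Isl1 averaged 239.8 ± 84.4 at P21 and 789.8 ± 209 at P1. Markers of other cells were also measured. Higher at P21 were 7 of 8 oligodendrocyte genes tested, 4 of 6 astrocyte genes and 4 of 6 microglial genes. So were 4 of 7 vascular genes and 4 of 6 fibroblast genes. Over all 10961 genes tested, 22% were higher and 17.4% lower. Among the markers that were higher, the astrocyte gene Fgfr3 and the vascular gene Pecam1 overlapped between the ages. The oligodendrocyte genes Mog, Mobp and Opalin and the microglial gene Cd74 met the brightness filter only through P21 arrays, and without them 4 of 5 oligodendrocyte and 3 of 5 microglial genes were higher. The summed intensity of the oligodendrocyte genes was 32511 to 35162 at P21 and 6480 to 8274 at P1, with Mobp and Opalin below 30 on every P1 array. The summed fibroblast genes were 12698 to 27578 at P21 and 7468 to 11477 at P1, and the summed astrocyte genes were 10815 to 13239 at P21 and 7367 to 8377 at P1, although the astrocyte glutamate transporter gene Slc1a3 fell by 1.35 on the log2 scale. Spinal interneuron genes mostly went the other way, with Gad1, Slc17a6, Tac1 and Sst lower and Slc32a1 higher of 6 tested, and sums of 6779.6 to 8899 at P21 and 12959 to 13199 at P1. The Gad1 values overlapped between the ages, and the other Gad1 probe set stood at 0.51 on the log2 scale and did not pass the test. Of 4 genes of dividing cells, Cdk1 and Mcm6 were lower and none was higher, with sums of 1039.8 to 2561 at P21 and 2245 to 2597 at P1. Tac1 and Mcm6 met the filter only through P1 arrays, and without them 3 of 5 interneuron genes and 1 of 3 genes of dividing cells were lower. In captured pools, fewer cells of a type and less RNA per cell cannot be told apart, and the part of these other cells in the results below was not tested.

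The 9 genes did not move together. Aldh1a2, Crabp1, Rarb and Rxrg were lower at P21, Aldh1a1 and Crabp2 were higher, Rara and Rxrb did not pass the test, and Rxra was too dim to test. Changes are log2 of P21 over P1 ± standard error from limma, a linear model fitted over all probe sets that exceeded the 40th percentile of their array on at least 4 of 8 arrays, and a gene passed at a Benjamini-Hochberg adjusted p under 0.05. Thus 6 of the 8 tested genes passed (4 of 8 lower, 2 of 8 higher), while over all 10961 genes 39.4% passed, 17.4% lower and 22% higher. Aldh1a1 met the brightness filter only through its P21 arrays, and without it 5 of 7 passed. In the same 6 genes the P21 and P1 intensities did not overlap, against 40.1% of all genes. The median change of the 8 genes was -0.42, beside 0.05 over all genes.

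**Figure D1:**
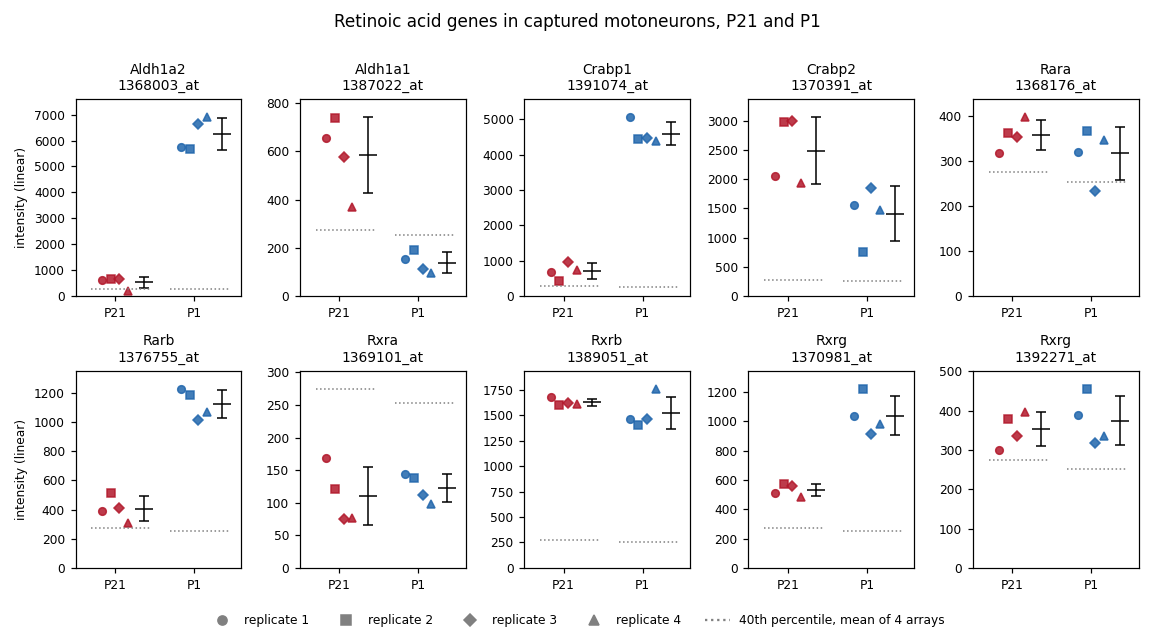
Linear intensity of the 10 probe sets on each array, P21 in red and P1 in blue, with marker shapes for the replicate numbers, black bars for the mean ± SD (n = 4) and dotted lines for the 40th percentile of the arrays, averaged within each age. Aldh1a2, Crabp1, Rarb and the brighter Rxrg probe set are lower on every P21 array, Aldh1a1 and Crabp2 are higher on every P21 array, and Rxra lies under the dotted lines on all 8.

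Of the synthesis enzymes, Aldh1a2, the main retinaldehyde dehydrogenase of the embryo, had the steepest fall of the 9 genes. Its intensity was 628, 643, 639 and 202 on P21 replicates 1 to 4, against 5747, 5687, 6624 and 6914 on P1 replicates 1 to 4. Every P21 array lay far below every P1 array, and P21 replicate 4 was the lowest and the only array under the filter level. Aldh1a2 averaged 528 ± 218 at P21 and 6243 ± 619 at P1. The change, fitted on the log2 scale and not from these linear means, was -3.65 ± 0.33 (95% interval -4.39 to -2.91, limma adjusted p = 2.88e-05), or 12.6-fold lower. Without P21 replicate 4 the change was -3.26 (limma adjusted p = 6.54e-07). Among the 10643 genes above the filter level on at least 1 array of each age, Aldh1a2 ranked 3 by size of fall. Over all 10961 genes tested, which include genes under the filter level on every P21 array, it ranked 17. Outside motoneurons Aldh1a2 is also known from meningeal cells. Of the 6 fibroblast markers tested, 4 were higher at P21, among them Col1a1 (4814 ± 2681 at P21 and 1723 ± 429 at P1), while Col3a1 and Pdgfra did not pass, and the part of such cells in the Aldh1a2 values was not tested.

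The other marker genes of limb-level motor columns fell less. Foxp1, a transcription factor of those columns, averaged 2040 ± 166 at P21 and 4777 ± 559 at P1 (change -1.22 ± 0.11), and Lhx1, a factor of their lateral division, averaged 394 ± 54.7 at P21 and 587 ± 105 at P1 (-0.55 ± 0.15, limma adjusted p = 0.0183), with Lhx1 overlapping between the ages. The difference between these changes and that of Aldh1a2 was not tested.

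The sequence around the annotated start of Aldh1a2 is shown because the gene had the largest fall of the 9. It covers chr8:80758391-80758690 on the plus strand of GRCr8 in the RefSeq annotation, which is 250 bases before and 50 after the start, and 76% of its bases are G or C, against a median of 51.7% over all promoters. The receptor hexamer was searched on both strands as AGGTCA, as its variant with a changed middle AGTTCA, as its variant with a changed start GGGTCA and with both changes as GGTTCA. The window contains 0 matches to these 4 hexamers, at least 1 of which is found in 44.4% of 33469 rat promoters of this length.
Aldh1a2 promoter: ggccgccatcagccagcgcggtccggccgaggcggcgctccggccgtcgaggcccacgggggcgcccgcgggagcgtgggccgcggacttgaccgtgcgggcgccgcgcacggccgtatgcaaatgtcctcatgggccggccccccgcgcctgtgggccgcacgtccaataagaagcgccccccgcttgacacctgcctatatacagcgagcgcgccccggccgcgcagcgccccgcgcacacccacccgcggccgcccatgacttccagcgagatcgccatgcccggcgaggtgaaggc

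Aldh1a1, a second cytosolic retinaldehyde dehydrogenase that is also known from midbrain dopamine neurons, went the other way. It read 657, 738, 575 and 370 on the P21 arrays, against 153, 192, 112 and 94.0 on the P1 arrays. The ages did not overlap, and all 4 P1 values were under the filter level of their arrays, so the fold is a bound. The rise was at least 2.18-fold, the mean at P21 over the mean filter level at P1 on the log2 scale, with a fitted change of 1.97 ± 0.25 (limma adjusted p = 2.21e-04). The oligodendrocyte and astrocyte sums were higher on the same P21 arrays, as given above, and their part in this rise was not tested. Intensities of different probe sets are not on a common scale, so the levels of the Aldh1a1 and Aldh1a2 transcripts were not set against each other.

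The cytoplasmic binding proteins also moved in opposite directions. Crabp1, which binds retinoic acid in the cytoplasm and is known to promote its breakdown, read 685, 419.94, 975 and 738 on the P21 arrays, against 5071, 4444, 4474 and 4385 on the P1 arrays. The 4 P21 values were all far below the lowest P1 value. Crabp1 averaged 705 ± 228 at P21 and 4593 ± 321 at P1, a change of -2.73 ± 0.21 (95% interval -3.21 to -2.26, limma adjusted p = 1.20e-05) or 6.66-fold lower. By fall it ranked 14 of the 10643 genes measured at both ages and 44 of all 10961 genes tested.

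Crabp2, which delivers retinoic acid to its receptors in the nucleus, read 2052, 2978, 3003 and 1931 on the P21 arrays, against 1558, 748, 1856 and 1475 on the P1 arrays. The ages did not overlap, but the gap between the lowest P21 and the highest P1 array was small beside the spread within either age. The means were 2491 ± 579 at P21 and 1409 ± 470.05 at P1, a change of 0.86 ± 0.27 (95% interval 0.25 to 1.47, limma adjusted p = 0.0326) or 1.81-fold higher. This call did not hold in 5 of the alternatives. The adjusted p was 0.0719 with arrays centred on their medians, 0.0614 without the filter, 0.0887 without P21 replicate 2, 0.0816 without P21 replicate 3 and 0.0531 without P1 replicate 4.

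The Crabp1 promoter is given as the partner of the Aldh1a2 sequence, since these genes had the largest falls of the 9. It lies at chr8:64047181-64047480 on the plus strand of GRCr8 (RefSeq), 70.7% of its bases are G or C, and it too has 0 matches to the receptor hexamers.
Crabp1 promoter: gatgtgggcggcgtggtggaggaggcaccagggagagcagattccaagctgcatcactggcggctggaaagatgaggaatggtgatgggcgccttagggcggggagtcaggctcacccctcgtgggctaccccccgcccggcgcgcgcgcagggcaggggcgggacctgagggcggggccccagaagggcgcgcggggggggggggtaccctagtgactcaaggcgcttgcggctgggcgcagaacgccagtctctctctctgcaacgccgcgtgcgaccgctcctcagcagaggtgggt

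Among the RAR and RXR genes of the 9, Rarb had the largest change. This retinoic acid receptor read 392, 514, 408 and 308 on the P21 arrays, against 1227, 1182, 1015 and 1070.4 on the P1 arrays. The lowest P1 value was well above the highest P21 value. Rarb averaged 405 ± 84.9 at P21 and 1124 ± 97.7 at P1, a change of -1.45 ± 0.15 (95% interval -1.78 to -1.12, limma adjusted p = 5.81e-05) or 2.74-fold lower.

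Rarb is shown with its start region because the gene is a classical transcriptional target of retinoic acid as well as a receptor for it. In mouse and human, a direct repeat of the receptor hexamer with a spacer of 5 bases (DR5) in its promoter is the textbook retinoic acid response element. In the rat sequence of chr15:11336142-11336441 (GRCr8, plus strand, RefSeq), the capitals mark such a repeat, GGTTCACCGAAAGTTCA, at bases 25 to 41 after the annotated start. A DR5 formed by any pair of the 4 hexamers, on either strand, was found in 0.382% of the 33469 promoters and in 1 of the 9 described here.
Rarb promoter: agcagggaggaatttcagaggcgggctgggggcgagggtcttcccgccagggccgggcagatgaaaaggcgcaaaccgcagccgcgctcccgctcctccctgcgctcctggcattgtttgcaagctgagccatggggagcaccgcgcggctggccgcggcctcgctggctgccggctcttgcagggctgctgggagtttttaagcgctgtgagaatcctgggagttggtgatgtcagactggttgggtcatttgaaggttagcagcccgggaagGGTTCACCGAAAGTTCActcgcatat

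Repeats spaced by 1 base or by 2 bases, which are also known receptor elements, occurred in 0.233% and 0.17% of promoters and in 0 of the 9. Single hexamers were found in Aldh1a1, Rara and Rarb, that is in 3 of the 9, against the 44.4% given above. These matches describe the letters in a short window and say nothing of binding. All 9 genes matched the promoter table, and their G and C content was 48.3% to 84.7%.

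Rara, the most widely expressed retinoic acid receptor, read 319, 361, 353 and 398 on the P21 arrays, against 320.2, 367, 234 and 346 on the P1 arrays. The ages overlapped, and the change of 0.18 ± 0.14 did not pass (95% interval -0.14 to 0.50, limma adjusted p = 0.348). Rarg, the remaining retinoic acid receptor and not among the 9 genes, read 363, 353, 339 and 603 on the P21 arrays, against 174, 176, 143 and 201 on the P1 arrays. Its P1 values were all under the filter level, and it was at least 1.56-fold higher at P21 (fitted change 1.15 ± 0.18, limma adjusted p = 9.21e-04, and 0.96 without P21 replicate 4, which read highest). Its other probe set was under the filter level on all arrays. The RAR genes thus gave a called fall for Rarb, a called rise for Rarg and no call for Rara.

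The RXR genes, whose products pair with RARs and with several other nuclear receptors, gave 1 called change. The brighter probe set of Rxrg read 509.98, 575, 560.3 and 481 on the P21 arrays, against 1038, 1221, 911 and 979 on the P1 arrays. The ages were separate, with a change of -0.94 ± 0.11 (95% interval -1.19 to -0.69, limma adjusted p = 1.70e-04) or 1.92-fold lower. The dimmer Rxrg probe set read 299.97, 378, 335 and 396 on the P21 arrays, against 389, 456, 319 and 336 on the P1 arrays. It overlapped between the ages and did not pass (-0.08 ± 0.13, 95% interval -0.38 to 0.22, limma adjusted p = 0.669), and the probe sets were made from different expressed sequence tags. With their mean as the value of the gene, the change was -0.51 and still passed (limma adjusted p = 0.00536).

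Rxrb, another RXR gene, read 1682, 1601, 1626 and 1614 on the P21 arrays, against 1464, 1408, 1467 and 1763 on the P1 arrays. Its change was 0.10 ± 0.10 (95% interval -0.11 to 0.31, limma adjusted p = 0.438), and the sign turned when arrays were centred on their medians (-0.04). Rxra read 168, 121, 75.4 and 77.2 on the P21 arrays, against 144, 138, 112 and 97.6 on the P1 arrays. All 8 values were under the filter level, the ages overlapped, and a fit without the filter gave -0.18 ± 0.24 (limma adjusted p = 0.643), so at this brightness no difference was detectable.

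**Figure D2:**
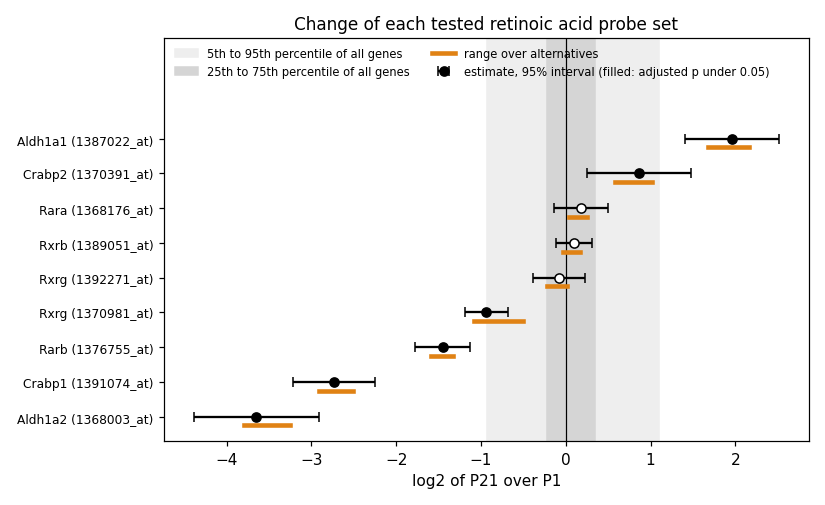
Log2 of P21 over P1 for the 9 tested probe sets, with the limma estimate and its 95% interval (filled where the adjusted p is under 0.05), the range over all alternatives in orange and the spread of all 10961 genes in grey. Aldh1a2 (-3.65), Crabp1 (-2.73) and Rarb (-1.45) lie below the 5th percentile of all genes, and Aldh1a1 (1.97) lies above the 95th. The brighter Rxrg probe set (-0.939) lies just below the 5th percentile (-0.931). Its orange range reaches -0.51, the value of the mean of both probe sets.

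Other genes of the pathway were taken from a list of 68, of which 60 were on the array and 45 were bright enough to test. Of these, 13 were higher, 13 were lower and 19 did not pass, so 26 of 45 passed, against 39.4% of all genes. Rarg and Rora met the brightness filter only through their P21 arrays, and without them 24 of 43 passed, 11 higher and 13 lower. The median change was 0.17, beside 0.05 over all genes. The list joins genes of unlike function, so it is described by role.

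Of 7 genes of retinol uptake, binding and storage, 4 were tested, 2 rose, 1 fell and 1 did not pass. Stra6, the cell-surface receptor that takes up retinol from its plasma carrier, fell on the brightest of its 5 probe sets, at 641, 1190.4, 496 and 479 on the P21 arrays, against 1341, 1101, 1214 and 1246 on the P1 arrays. P21 replicate 2 lay among the P1 values, and the change was -0.89 ± 0.25 (limma adjusted p = 0.0202), a call lost without P21 replicate 3 (0.0545) or P21 replicate 4 (0.0529). Of the 3 other Stra6 probe sets tested, with changes of -1.02, -0.69 and -0.43, the first pair passed and the last did not (limma adjusted p = 0.0674).

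Rbp4, the plasma carrier of retinol, read 621, 1205, 2192 and 752 on the P21 arrays, against 59.9, 149.7, 116 and 278 on the P1 arrays. Only 1 of the 4 P1 values was above the filter level of its array, so the size of the fold is uncertain. The rise of 2.85 ± 0.46 passed (limma adjusted p = 9.62e-04), with a P21 spread of 1193 ± 712 that was wider than for any of the 9 genes. Ttr, transthyretin, which carries Rbp4 in blood and is a leading product of the choroid plexus, read 349, 342, 2773 and 259 on the P21 arrays, against 353, 382, 231 and 290.3 on the P1 arrays. The array with the high Ttr, P21 replicate 3, was also the highest for Rbp4, and without it Rbp4 rose by 2.50 (limma adjusted p = 0.00217). Ttr itself did not pass (0.79 ± 0.63, limma adjusted p = 0.357). Rpe65, the retinoid isomerase of the eye, read 429 to 573 at P21 and 216 to 341 at P1 (change 0.85 ± 0.16, limma adjusted p = 0.00210).

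Of 15 oxidation and reduction enzymes, 5 were tested, 1 rose, 1 fell and 3 did not pass. Rdh11, a retinal reductase, fell (409.87 ± 96.7 at P21 and 766 ± 53.3 at P1, change -0.90 ± 0.16, limma adjusted p = 0.00149). Dhrs4 rose by 0.34 ± 0.11 (limma adjusted p = 0.0288), and its call was lost in 8 of 16 alternatives. Its other probe set stood at 0.15 and did not pass (limma adjusted p = 0.462). Rdh10, which makes the retinaldehyde that Aldh1a2 uses, did not pass at 480.35 ± 77.4 at P21 and 402 ± 36.9 at P1 (0.24 ± 0.12, limma adjusted p = 0.158). The retinal reductase gene Dhrs3, at 1730.0 ± 294 at P21 and 1265 ± 587 at P1, did not pass either. Aldh1a3, the third retinaldehyde dehydrogenase, was too dim to test.

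The breakdown enzyme Cyp26b1, which clears retinoic acid, fell. It read 1279, 849, 1072 and 542 on the P21 arrays, against 2269.8, 1342, 2066 and 1551 on the P1 arrays, a change of -0.97 ± 0.26 (limma adjusted p = 0.0156). Its other probe set fell by 0.52 (limma adjusted p = 0.0366), and its values overlapped between the ages. Cyp26a1 was too dim to test. Fabp5, which can carry retinoic acid to other receptors, did not pass (-0.14 ± 0.08, limma adjusted p = 0.192).

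**Figure D3:**
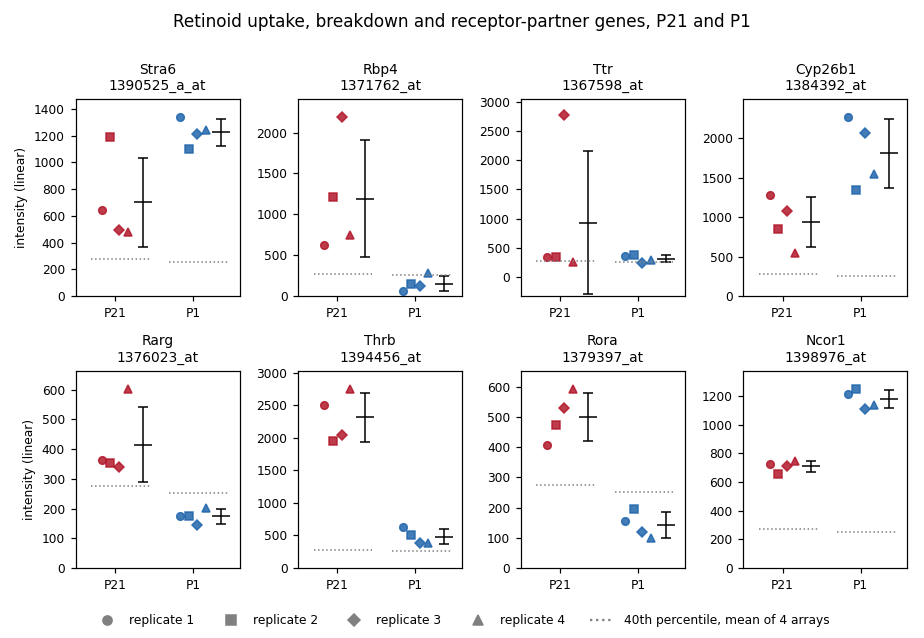
Linear intensity of 8 other pathway genes on each array, P21 in red and P1 in blue, with marker shapes for the replicates, bars for the mean ± SD (n = 4) and dotted lines for the mean 40th percentile, the genes having been chosen for display after their values were seen. The single high Ttr value on P21 replicate 3 (2773) and the P21 replicate 2 value of Stra6 (1190.4) within the P1 range stand out.

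Of 13 receptor genes that share RXR as a partner or act beside RARs, 9 were tested, 5 rose, 1 fell and 3 did not pass. The thyroid hormone receptor genes went opposite ways. Thrb read 2496, 1954, 2048 and 2752 on the P21 arrays, against 631, 507, 389 and 385 on the P1 arrays, and rose by 2.25 ± 0.18 (limma adjusted p = 1.26e-05), with its other tested probe set also up. Thra averaged 3482 ± 228 at P21 and 4461 ± 67.8 at P1 and fell by 0.36 ± 0.08 (limma adjusted p = 0.00816), but another Thra probe set stood at 0.29 (limma adjusted p = 0.0506), and the mean of its tested probe sets did not pass (-0.03, limma adjusted p = 0.771). Rora, an orphan receptor, was at least 1.91-fold higher at P21, with all P1 values under the filter level, and the oxysterol receptor gene Nr1h2 rose by 0.65. Rorb, another orphan receptor, rose by 0.66 on its brighter probe set, but its other probe set stood at 0.50 (limma adjusted p = 0.287), and the mean of both did not pass (limma adjusted p = 0.0751).

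Of 13 corepressor and coactivator genes, 11 were tested, 1 rose, 3 fell and 7 did not pass. Ncor1, a corepressor that RARs hold without ligand, read 726, 657, 715 and 747 on the P21 arrays, against 1211, 1250.5, 1112 and 1141 on the P1 arrays. It fell by 0.72 ± 0.09 (limma adjusted p = 1.79e-04), and its other tested probe set fell by 0.97. Nr2f1 (COUP-TFI), an orphan receptor that can compete at retinoic acid elements, fell by 0.61. Nr2f2 fell by 0.25 on its brightest probe set, a call that was lost in 11 of 16 alternatives. Another Nr2f2 probe set fell by 0.40 (limma adjusted p = 0.0234), while a further probe set stood at 0.42 and did not pass (limma adjusted p = 0.357). Nrip1, a ligand-dependent corepressor, rose by 0.52 (limma adjusted p = 0.0160), a call that was lost with arrays centred on their medians (0.0539). The acetyltransferase genes Crebbp and Ep300 and the coactivators Ncoa1, Ncoa3 and Med1 did not pass on their brightest probe sets, while another Ep300 probe set had a called rise of 0.60 and another Ncoa1 probe set one of 0.36.

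Of 16 genes known from other systems to respond to retinoic acid, 14 were tested, 4 rose, 6 fell and 4 did not pass. The homeobox genes Meis2 (604 ± 120.5 at P21 and 3332 ± 109 at P1, change -2.46 ± 0.14) and Meis1 (892 ± 171 at P21 and 3348 ± 325 at P1, -1.91 ± 0.15) fell, as did Dlk1 (-1.98 ± 0.27), Rai14 (-1.55 ± 0.21), the GDNF receptor gene Ret (-0.50 ± 0.10) and Gap43 (-0.37 ± 0.09). Rarres2, the chemerin gene, rose by 2.00 ± 0.48 (limma adjusted p = 0.00921) with only 1 of 4 P1 values above the filter level. Gprc5b rose by 0.92 ± 0.09. Gbx2 (1.08) and the Tgm2 probe set that represents the gene (0.46) rose with overlapping ages. This call of Tgm2 was lost in 3 of 15 alternatives. The other Tgm2 probe set rose by 1.46 (limma adjusted p = 0.0115) without overlap, with 2 of 4 P1 values above the filter level. Rarb belongs to this class of genes too, and its change of -1.45 lies between those of Meis2 and Gap43.

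**Figure D4:**
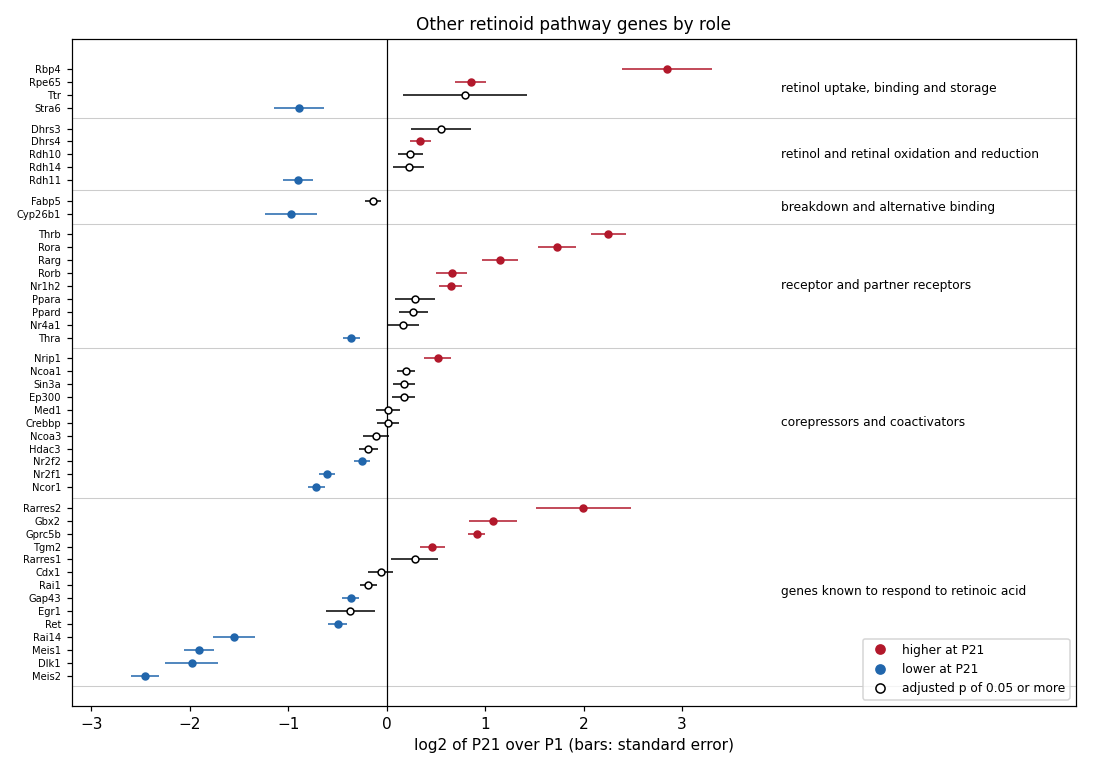
Log2 of P21 over P1 for the 45 tested pathway genes by role, each on its brightest probe set, with bars for the standard error, red for genes higher and blue for genes lower at P21 by limma's adjusted p and open circles for the others. No role moved in a single direction except the breakdown and alternative binding genes, where Cyp26b1 fell and Fabp5 did not pass.

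The genes outside the retinoid list whose log2 values followed Aldh1a2 most closely over the 8 arrays were Slc1a6, Add2, Camk4, Elmod2 and Ptpro, with Pearson correlations of 0.994 to 0.997. The 5 closest to Aldh1a1 were Rell1, Pip4k2a, Eloa, Tbc1d8b and Rps6ka5 (0.982 to 0.987). Slc1a6, Add2 and Camk4 were under the filter level on all P21 arrays, and Rell1 and Tbc1d8b were under it on all P1 arrays. The correlations describe likeness only, since the arrays fall into 2 age groups and any gene with a consistent difference between the ages correlates over them. The difference can be small, as for Elmod2 (-0.34) and Eloa (0.26).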

How the data were processed

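Linear intensities of 31042 probe sets on 8 Affymetrix RAE230 2.0 arrays (4 at P21, 4 at P1) were used as the authors deposited them. The authors' summarising, background correction and normalization of these intensities are not given in the sources used here. Array medians were 399.57 to 416 at P21 and 323 to 408 at P1, and arrays correlated at 0.958 to 0.977 within P21, 0.958 to 0.986 within P1 and 0.821 to 0.868 between ages. For arrays, their number limits the precision. Replicates were separate pools per the labels.

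Negative intensities were replaced by 0, and log2 of the intensity plus 16 was fitted with limma 3.58.1 in R 4.3.3 (unpaired, all 8 arrays). The log2 scale is not one the authors deposited, and it understates changes of dim genes. Filter, adjustment and threshold are given with the results, and 19155 probe sets were tested. A gene was represented by its tested probe set of highest mean. Symbols came from the platform annotation, with 20758 of 20826 single-symbol probe sets found in the GRCr8 gene table. A bound ("at least") divides the mean at the brighter age by the mean filter level at the dimmer age. The procedure was also run on simulated data with noise drawn independently for each array. That run therefore cannot show how deviations shared between arrays affect the calls.

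Members, lists and tests were chosen with earlier results of these data known. The named genes are the 9 members with each of their probe sets, called genes of the pathway lists, fixed cell markers, and the 5 genes most correlated with the members of largest fall and rise. Any uncalled pathway gene or probe set named was picked with its values in view. The replicate numbers were treated as pairs in an alternative fit, because deviations from the age mean correlated at 0.514, 0.321, 0.558 and 0.15 between arrays numbered 1, 2, 3 and 4, and because the design text says that litters were split between the ages. This pairing is uncertain, because arrays of unlike number also deviated together, at 0.366 for P21 replicate 3 with P1 replicate 4 and 0.262 for P21 replicate 2 with P1 replicate 1. Alternatives were median centring, quantile normalization, 1 or 64 added before log2, no filter or the 60th percentile, a replicate block, the mean of a gene's probe sets, and leaving out each array.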

Additional observations from a re-analysis of the deposited data

Results flagged for a closer look

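In 110 groups of 4 arrays (the 10 probe sets of the 9 genes and the 45 tested pathway genes, at each age), 9 had a highest or lowest array whose distance from the nearest other array exceeded Dixon's 95% critical value of 0.829 of the range. Chance gives about 1 in 20. Aldh1a2 read 202 on P21 replicate 4, against 628 to 643 on the other P21 arrays, and Rarg read 603 on the same array, against 339 to 363. Of the fibroblast markers tested, Col1a1, Col1a2 and Lum were also highest on that array among the P21 arrays. Col1a2 read 8464 there and 1868 to 3304 on the other P21 arrays. Col3a1 was lowest there (3098, against 3328 to 4532), and Dcn and Pdgfra lay between. Markers of other cells were highest there too. Among the microglial genes these were Lyz2 (3278, against 1427 to 1854 on the other P21 arrays), Cd74 and Csf1r, but not Aif1, C1qa or C1qb. The genes of dividing cells, Mki67 (818, against 209 to 530), Top2a, Cdk1 and Mcm6, were all highest there. So was the astrocyte gene Gfap, but no other astrocyte gene and no vascular gene tested. The part of any of these cells in the Aldh1a2 and Rarg values was not tested. Crabp1 read 5071 on P1 replicate 1, against 4385 to 4474 on the other P1 arrays. Rxrb read 1763 on P1 replicate 4, against 1408 to 1467. Ttr read 2773 on P21 replicate 3, against 259 to 349. On P21 replicate 2, Rai14 read 501.3 (679 to 687 elsewhere at P21), Meis1 read 636 (954 to 991) and Ncoa1 read 2026 (2331 to 2372). Rai14 was also low on P1 replicate 2, at 1167, against 2120.1 to 2265.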

How the results depend on the processing

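Aldh1a2, Aldh1a1, Crabp1, Rarb and the brighter Rxrg probe set kept their direction and their call in every alternative that tested them. The range of the change was -3.79 to -3.26 for Aldh1a2, 1.67 to 2.16 for Aldh1a1, -2.91 to -2.51 for Crabp1, -1.59 to -1.33 for Rarb and -1.08 to -0.51 for Rxrg. The -0.51 is the change of the mean of both Rxrg probe sets, not of the brighter probe set. With the filter at the 60th percentile Aldh1a1, Rara and the dimmer Rxrg probe set were not tested. Crabp2 lost its call in the 5 alternatives named above, with a change between 0.58 and 1.02 over the alternatives, and the cause was not tested. The 9 genes gave 5 or 6 calls throughout. The pathway list gave 18 to 28 calls, 13 higher and 13 lower in the analysis reported, 10 and 13 with arrays centred and 5 and 13 at the 60th percentile, where fewer genes are tested. Leaving out 1 array at a time gave 3528 to 4309 called genes and 23 to 25 called pathway genes. Centring moved the median of all genes from 0.05 to -0.09 and the share of called genes that were higher at P21 to 39.8%, against 55.8% as deposited. With the replicate block 8805 probe sets and 5119 genes were called, against 7329 and 4317 without it, the 6 called members were the same, and no call was lost among the called pathway genes on their brightest probe sets; other probe sets and the cell markers were not run with the block. Intensity limits Rxra at both ages and Aldh1a1, Rarg and Rora at P1, which lay under the filter level there. It also limits Rbp4 and Rarres2 at P1, where 3 of 4 arrays were under it. Dlk1 at P21 and Rpe65 at P1 were above it on only 2 of 4 arrays. The motoneuron marker Isl1 was above it on only 1 of 4 P21 arrays.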
